A study of Mus musculus with 16 samples.

Results

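The genes described here are 10 genes of muscle atrophy and autophagy, Fbxo32, Trim63, Foxo1, Foxo3, Bnip3, Map1lc3a, Map1lc3b, Gabarapl1, Sqstm1 and Ctsl, measured in mouse gastrocnemius, a mixed-fibre muscle of the hind leg. They were found by name in the gene name column of the array files, which gave 15 probes among the 55681 probe names on the array. The series compared Eif6+/- mice (Het) with Eif6+/+ littermates (WT), all male C57BL6 animals aged 8 to 16 weeks, with no treatment in either group. The mutation was carried in every tissue and not in muscle alone, and Eif6 encodes an initiation factor that binds the large ribosomal subunit. RNA was taken from the whole muscle and, after a sucrose gradient, from the polysome fractions (mRNA bound by several ribosomes) and the monosome fraction (mRNA bound by a lone ribosome). Analysed here were 16 single-colour arrays, of whole muscle and polysomes from 3 mice of each genotype and of monosomes from 2 mice of each genotype.

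When muscle wastes, protein is broken down along 2 routes. In the first, ubiquitin ligases mark proteins for the proteasome, and Fbxo32 (atrogin-1) and Trim63 (MuRF1) are the ligases by which atrophy is usually recognised. In the other, autophagy, a double membrane closes around cargo and fuses with the lysosome: Map1lc3a, Map1lc3b and Gabarapl1 encode the small proteins that are coupled to the lipid of that membrane, Sqstm1 (p62) and Bnip3 encode receptors that tie ubiquitinated cargo and mitochondria to it, and Ctsl encodes a lysosomal protease, cathepsin L. Foxo1 and Foxo3 encode transcription factors that switch on genes of both routes.

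The probes matter to what follows, because several genes were read at more than 1 place along the mRNA. The sequences below are the upstream probes of Sqstm1, Trim63 and Foxo1, shown because these genes also have a downstream probe that did not always give the same answer. Each is 60 bases long, is printed 5′ to 3′ in the sense of the mRNA in lower case throughout, and has at least 1 reading frame with no stop codon. By the array files (mm9) the Sqstm1 probe lay at chr11:50015985-50016044 on the minus strand, the Trim63 probe at chr4:133881557-133881616 on the plus strand and the Foxo1 probe at chr3:52150183-52150242 on the plus strand.
Sqstm1: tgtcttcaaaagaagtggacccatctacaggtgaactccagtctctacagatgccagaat
Trim63: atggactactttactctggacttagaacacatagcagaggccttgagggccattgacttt
Foxo1: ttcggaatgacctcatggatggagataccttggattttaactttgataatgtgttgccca

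Signals are given on the log2 scale after quantile normalization of the 16 arrays, so that a difference of 1 is a 2-fold difference. Levels are compared between arrays at 1 probe, and the signals of a pair of probes on 1 transcript are set against each other only to compare arrays. A probe was tested when the scanner marked it as well above background throughout some group. This left 14 probes of 9 genes. The Foxo3 probe had that mark on 0 of the 16 arrays, and no difference is given for Foxo3. Where a gene had several probes, the brightest one stands for the gene in all counts, and the differences of the others are given beside it. Genotypes and RNA kinds were compared with limma, and a difference was called by the rule of the study (absolute log2 difference above 1 with unadjusted p below 0.05) or by an adjusted p below 0.05.

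The arrays differed in ways that touch several results. The brightness of an array (75th percentile of its signal before normalization) ran from 12.7 to 150.1, and the Het whole-muscle arrays (13.5, 19.1 and 33.0) were all dimmer than the WT whole-muscle arrays (42.3, 57.1 and 150.1). Eif6 itself, the label check, was lower in every Het than in every WT array within each RNA kind, by 0.93 in whole muscle, 1.32 in polysomes and 1.82 in monosomes on the log2 scale. The 10 skeletal muscle fibre markers were all measured, with a summed log2 level between 19.3 and 20.3 on every array. In Het polysomes 8 of these 10 were higher than in WT (median 0.28), and 5 of 10 were in whole muscle (median -0.03). Slow fibre markers were higher in Het in 6 of 6 genes in polysomes (median 0.15) and 5 of 6 in whole muscle (median 0.14). Their mean log2 level overlapped between genotypes, at 10.09 to 11.67 in WT and 10.79 to 11.41 in Het polysomes. In whole muscle it was 9.33 to 11.21 in WT and 10.26 to 10.62 in Het. Adipocyte markers were higher in Het in 1 of 6 in polysomes (median -0.29) and 3 of 6 in whole muscle (median -0.02). Of the immune cell markers 8 of 9 tested were lower in Het whole muscle (median log2 difference -0.95) and 9 of 9 were lower in Het polysomes (median -0.85). Their summed log2 level ran from 11.4 to 12.5 in WT and from 11.2 to 11.6 in Het whole muscle. In polysomes it ran from 11.6 to 12.5 in WT and from 10.7 to 11.9 in Het, so that the genotypes overlapped in both. The mean level of these markers in whole muscle of WT mouse 2 (6.51) was below that of every Het mouse (6.56 to 6.68). Blood cell markers were lower in Het polysomes in 5 of 5 genes (median -1.20, with a summed level of 14.3 to 15.3 in WT and 13.3 to 13.7 in Het) and in 2 of 5 in whole muscle. Fibroblast markers were lower in 5 of 6 genes in both kinds of RNA (medians -0.34 and -0.38), and endothelial markers in 5 of 6 in whole muscle (median -0.33) and 3 of 6 in polysomes. The part of these markers in the results was not tested. In whole muscle, fewer cells of a type and less RNA per cell cannot be told apart.

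WT polysome 2 and WT monosome 2 stood apart in how signal was spread along transcripts. Over 1200 transcripts with tested probes at least 500 bases apart, the upstream minus downstream log2 difference had a median of 0.58 on WT polysome 2 and 0.80 on WT monosome 2, and of -1.35 to -0.79 on the other 14 arrays. The downstream Foxo1 probe was well above background on the other 14 arrays, at 5.94 to 7.08, and not on these, where it read 4.05 and 1.63. Where leaving these arrays out ended a call named here or moved a called difference by more than 1.5 times, the value without them is given, an alternative chosen after seeing the data.

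**Figure D1:**
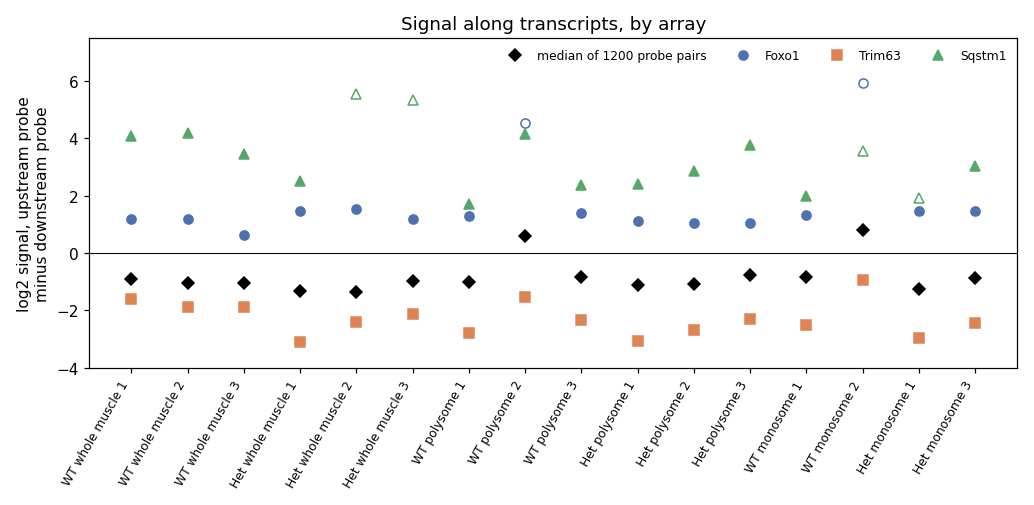
Log2 signal of an upstream probe minus that of a downstream probe of the same gene on each of the 16 arrays, for Foxo1, Trim63, Sqstm1 and the median of 1200 probe pairs; open symbols mark arrays on which 1 of the probes was not well above background, where the difference has no exact value. WT polysome 2 (0.58) and WT monosome 2 (0.80) have a median above 0, and the other 14 arrays lie between -1.35 and -0.79.

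Whole muscle was compared first, to ask whether the mRNAs of the atrophy programme differed in amount between Het and WT. Neither ubiquitin ligase nor any LC3 family gene was called: Fbxo32 differed by 0.39 ± 0.37 (log2, SE), Trim63 by -0.22 ± 0.29, Map1lc3a by -0.34 ± 0.34, Map1lc3b by -0.19 ± 0.22 and Gabarapl1 by 0.02 ± 0.23. Foxo1 differed by 0.38 ± 0.27, Bnip3 by 0.11 ± 0.36 and Ctsl by -0.23 ± 0.37. The downstream Foxo1 probe (0.0074 ± 0.57) and the other Bnip3 probes (0.02 ± 0.38 and 0.03 ± 0.23) lay near 0. By the study's rule 0 of the 9 genes were called, against 5.46% of all 19812 tested probes, and by adjusted p also 0, against 0.0101%. At an unadjusted p below 0.05 limma had 0 of 9 genes and the methods' t-test had 1, Sqstm1. The median difference over the 9 genes was -0.19 and over all tested probes -0.03.

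Sqstm1, the cargo receptor p62, had the largest difference of the 9 genes in whole muscle. The upstream probe read 10.03, 9.47 and 9.07 in WT mice 1 to 3 and 8.30, 8.55 and 8.91 in Het mice 1 to 3. Every Het array was below every WT array, and the difference was -0.94 ± 0.43 (limma, unadjusted p = 0.050, adjusted p = 0.586). The exact permutation p was 0.1, which is the smallest that 3 against 3 arrays allow. Sqstm1 was 1 of the 9 genes whose genotypes did not overlap in whole muscle, against 13.5% of all tested probes. The downstream probe read 5.95, 5.31 and 5.61 in WT and 5.80, 3.01 and 3.58 in Het, where mice 2 and 3 were not well above background, and it met the study's rule with a difference of -1.49 ± 0.59 (limma, unadjusted p = 0.0270, adjusted p = 0.536). That difference was -0.44 after normexp background correction, 0.18 on slide 2 alone and -0.10 with array brightness as a term, and -0.93 without Het mouse 2, none of which met the rule. It was -2.33 without Het mouse 1 (unadjusted p = 0.000129), the Het mouse in which the probe was well above background. The arrays lay on 2 slides, on each of which some genotype had a lone array of an RNA kind, and such an array was taken to vary as the others do. On slide 1 alone the upstream probe differed by -0.34 and on slide 2 alone by -1.45, and with array brightness as a term the difference was -1.13 (unadjusted p = 0.111). It met the study's rule without WT mouse 3 (-1.16) and without Het mouse 3 (-1.10).

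The upstream Trim63 probe also separated the genotypes in whole muscle where the brighter, downstream probe did not. It read 8.58, 8.21 and 7.73 in WT and 6.81, 7.19 and 7.60 in Het, a difference of -0.97 ± 0.52 (limma, unadjusted p = 0.0893, adjusted p = 0.648), with every Het array below every WT array. The downstream probe read 10.19, 10.11 and 9.61 in WT and 9.91, 9.61 and 9.73 in Het. These groups overlapped.

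**Figure D2:**
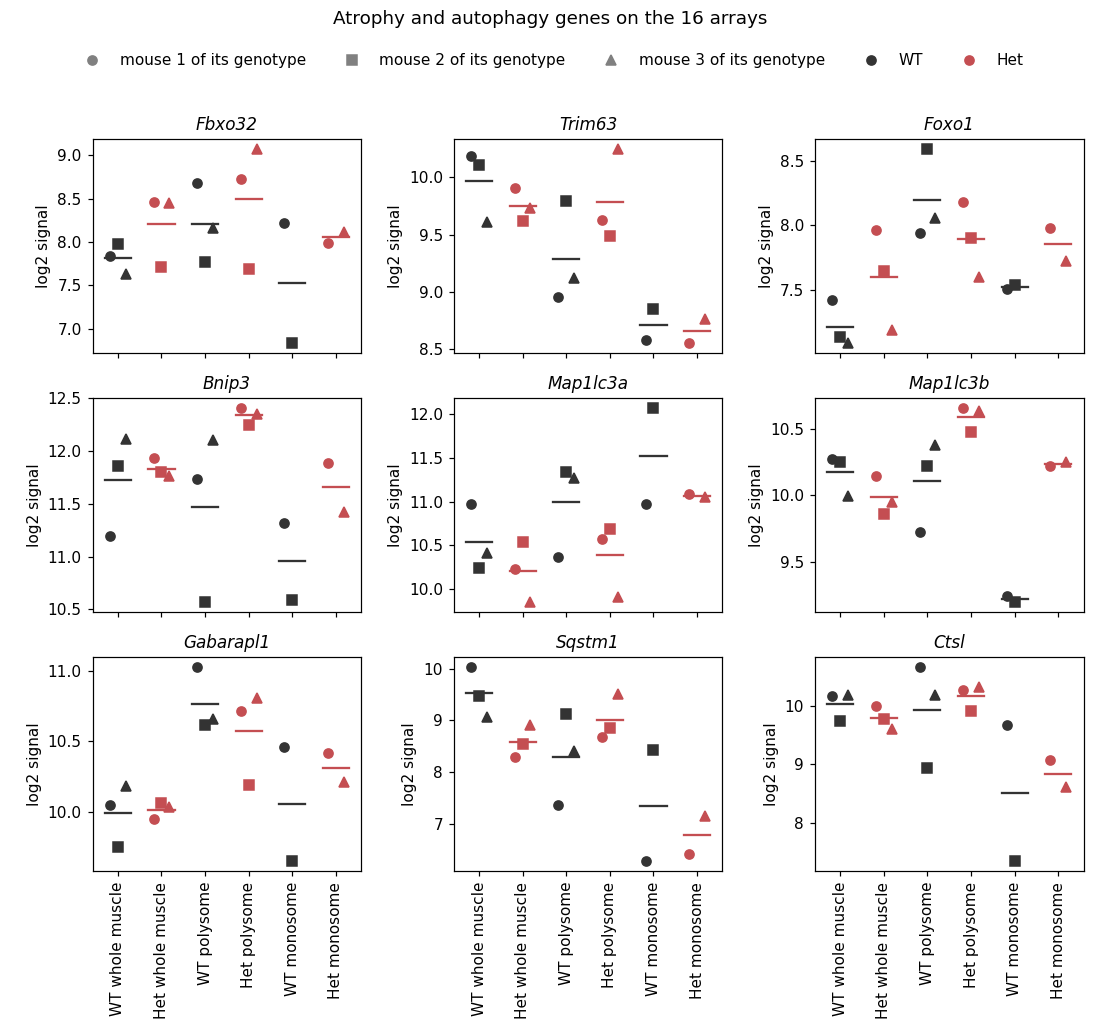
Log2 signal (quantile normalized) of the brightest tested probe of 9 genes on each of the 16 arrays, in 6 groups of genotype and RNA kind; bars are group means and symbols mark the mouse. Sqstm1 is lower in the Het than in the WT whole-muscle arrays, Bnip3 and Map1lc3b are higher in the Het than in the WT polysome arrays, and Sqstm1, Trim63 and Ctsl have their lowest group means in monosomes.

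In polysomes the receptor Bnip3 and the membrane protein gene Map1lc3b were the members with an unadjusted p below 0.05, both higher in Het. The brightest Bnip3 probe read 11.74, 10.57 and 12.11 in WT mice 1 to 3 and 12.41, 12.25 and 12.36 in Het mice 1 to 3. The Het arrays lay close together and above all WT arrays, with a difference of 0.87 ± 0.36 (limma, unadjusted p = 0.0359, adjusted p = 0.304). The other probes of Bnip3, which lie within the same stretch of the mRNA, gave 0.90 ± 0.38 and 0.81 ± 0.23. Without WT polysome 2 the brightest and the middle probe each gave 0.42 (unadjusted p = 0.144 and 0.148), while the dimmest probe, which read 4.75, 5.01 and 5.29 in WT, gave 0.81 (unadjusted p = 0.00902). The brightest probe met the study's rule without WT mouse 1 (1.001) and without WT mouse 3 (1.19).

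Map1lc3b read 9.72, 10.22 and 10.38 in WT polysomes and 10.66, 10.48 and 10.64 in Het polysomes. All Het arrays were above all WT arrays, by 0.48 ± 0.22 on average (limma, unadjusted p = 0.0477, adjusted p = 0.324). Without WT polysome 2 the difference was 0.54, and without WT mouse 1 it was 0.29 (unadjusted p = 0.211). On slide 2 alone it was 0.18, and Bnip3 there differed by 0.20.

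Bnip3 and Map1lc3b were 2 of 9 genes whose genotypes did not overlap in polysomes, against 21.8% of all tested probes. By the study's rule 0 of 9 genes were called in polysomes, against 5.51% of probes, and by adjusted p 0 of 9 genes, against 0%. The methods' t-test put 0 of 9 genes below an unadjusted p of 0.05. The other 7 genes ran from -0.61 ± 0.34 (Map1lc3a) to 0.71 ± 0.43 (Sqstm1). Sqstm1 was at 1.12 without WT mouse 2 (unadjusted p = 0.0242), where it met the study's rule, and at 0.24 without WT mouse 1. Trim63 went from 0.50 to 0.75 without WT mouse 2 (unadjusted p = 0.0254), and its lowest value without 1 mouse was 0.27. The upstream Trim63 probe gave 0.03 ± 0.52 and the downstream Sqstm1 probe 0.44 ± 0.59 (0.63 and 0.15 without WT polysome 2). Foxo1 gave -0.30 ± 0.27 at its upstream probe and 1.04 ± 0.57 at its downstream probe. The downstream Foxo1 probe read 6.65, 4.05 and 6.66 in WT, so that its low value was that of WT polysome 2. Without that array it gave 0.17 and the upstream probe gave -0.10. The median difference was 0.29 over the 9 genes and 0.05 over all tested probes.

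**Figure D3:**
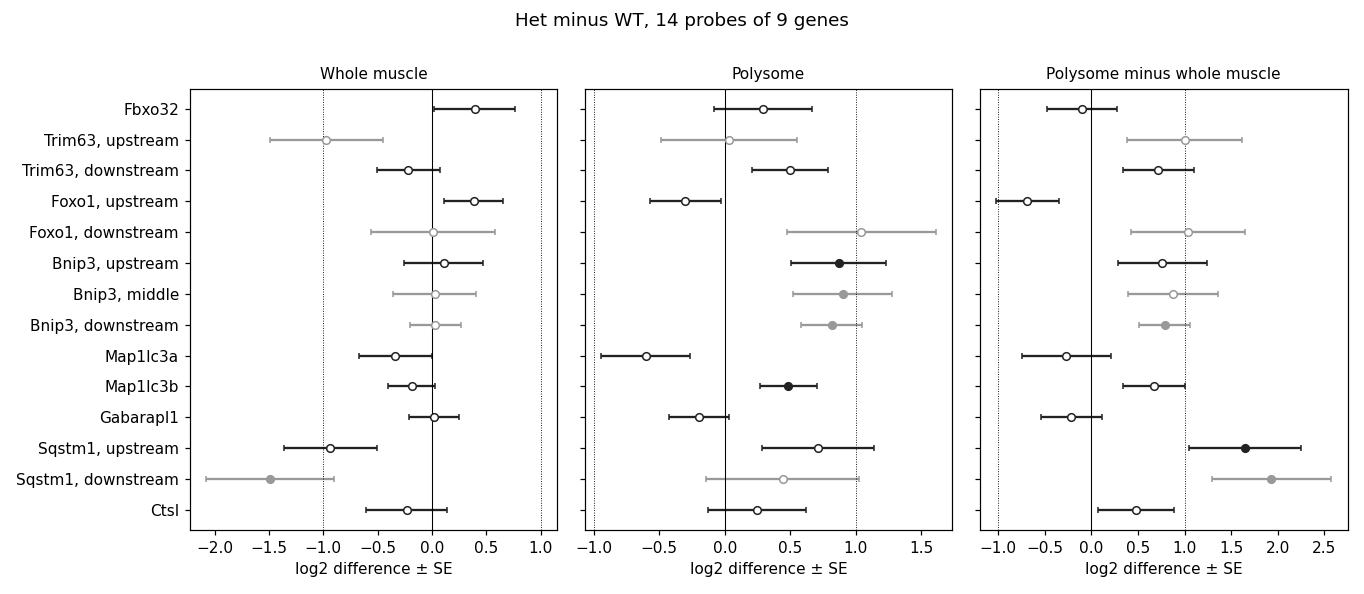
Het minus WT log2 difference ± SE (limma) for the 14 tested probes in whole muscle, in polysomes and in the polysome minus whole-muscle difference per mouse; black is the brightest probe of a gene, grey the others, filled points have an unadjusted p below 0.05 and dotted lines mark -1 and 1. Both Sqstm1 probes lie below 0 in whole muscle (-0.94 and -1.49) and above 0 in the per-mouse difference (1.65 and 1.93). The per-mouse difference subtracts the whole-muscle signal, so these are not separate results. The downstream probe was not well above background in whole muscle of Het mice 2 and 3.

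Polysome loading, the difference within each mouse between its polysome and its whole-muscle log2 signal, was then compared, since it asks how much of an mRNA sat on polysomes for the amount present. Sqstm1 was the member whose loading differed most between genotypes. The upstream probe gave -2.66, -0.35 and -0.66 in WT mice 1 to 3 and 0.38, 0.31 and 0.59 in Het mice 1 to 3. Loading was thus below 0 in every WT mouse and above 0 in every Het mouse, a difference of 1.65 ± 0.60 (limma, unadjusted p = 0.0278, adjusted p = 0.236; exact permutation p = 0.1). The downstream probe gave -0.28, -0.32 and 0.45 in WT and 0.47, 2.99 and 2.17 in Het, a difference of 1.93 ± 0.64 (limma, unadjusted p = 0.0182, adjusted p = 0.202). Its high Het values are those of the mice in which the whole-muscle probe was not well above background. At this probe the difference was 0.67 after normexp background correction, 0.02 with array brightness as a term and 1.80 without WT polysome 2 (unadjusted p = 0.0519). Loading subtracts the whole-muscle signal, so the lower Sqstm1 signal of Het whole muscle enters the loading difference and is not separate evidence. In polysomes alone the upstream and downstream Sqstm1 probes differed by 0.71 ± 0.43 and 0.44 ± 0.59.

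By the study's rule Sqstm1 was the 1 gene of 9 called in loading, against 13.8% of all tested probes, and by adjusted p 0 of 9 genes were called, against 0%. The methods' t-test put 0 of 9 genes below an unadjusted p of 0.05. At the upstream probe the Sqstm1 difference was 0.93 without WT mouse 1, where Bnip3 (1.16) met the rule in its place, and 2.08 without WT mouse 2, and its unadjusted p was 0.0560 without Het mouse 1 and 0.0712 without Het mouse 3. It was 0.90 with array brightness as a term (unadjusted p = 0.464). The sign was the same in all of these. No mouse had its polysome and its whole-muscle array on the same slide, so loading per mouse cannot be had within a slide. The same contrast between arrays of different mice, with some arms of 1 array, was 0.76 at the upstream and 3.27 at the downstream Sqstm1 probe on slide 1, and 2.22 and -0.36 on slide 2.

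Loading did not overlap between genotypes in 4 of the 9 genes, Sqstm1, Trim63, Map1lc3b and Foxo1, against 25.4% of all tested probes. Trim63 gave -1.24, -0.32 and -0.49 in WT and -0.28, -0.13 and 0.52 in Het, a difference of 0.72 ± 0.38 (limma, unadjusted p = 0.101), which was 0.44 without WT mouse 1 and 0.48 without Het mouse 3. Its upstream probe gave -2.43, 0.05 and -0.95 in WT and -0.27, -0.39 and 0.33 in Het, which overlapped (difference 1.002 ± 0.62, limma, unadjusted p = 0.146), and it was 0.34 without WT mouse 1 and 1.58 without WT mouse 2. Map1lc3b gave -0.55, -0.03 and 0.38 in WT and 0.51, 0.61 and 0.69 in Het, a difference of 0.67 ± 0.33 (limma, unadjusted p = 0.0814). Foxo1 ran the other way at its upstream probe, with 0.52, 1.46 and 0.97 in WT and 0.21, 0.26 and 0.41 in Het, a difference of -0.69 ± 0.33 (limma, unadjusted p = 0.0768). At its downstream probe Foxo1 gave 0.42, -1.89 and 0.20 in WT and 0.56, 0.75 and 0.53 in Het, a difference of 1.04 ± 0.61, so that the Foxo1 probes had opposite signs. Without WT polysome 2 the downstream probe gave 0.30 and the upstream probe -0.45. With all arrays the mean of the Foxo1 probes gave 0.17.

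Fbxo32, the other ligase, had loading values of 0.85, -0.21 and 0.53 in WT and 0.26, -0.02 and 0.63 in Het, and these overlapped (difference -0.10 ± 0.38). Gabarapl1 differed by -0.22 ± 0.33, Map1lc3a by -0.27 ± 0.48, Ctsl by 0.48 ± 0.41 and the brightest Bnip3 probe by 0.76 ± 0.48. The middle Bnip3 probe gave 0.88 ± 0.48. With WT mouse 2 left out these Bnip3 differences were 0.24 and 0.38, and that of Ctsl was 0.13. The dimmest Bnip3 probe, at the downstream end, gave -0.48, -0.66 and -0.47 in WT and 0.11, 0.40 and 0.22 in Het, with no overlap and a difference of 0.79 ± 0.27 (limma, unadjusted p = 0.0231, adjusted p = 0.219). The median loading difference was 0.48 over the 9 genes and 0.17 over all tested probes.

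**Figure D4:**
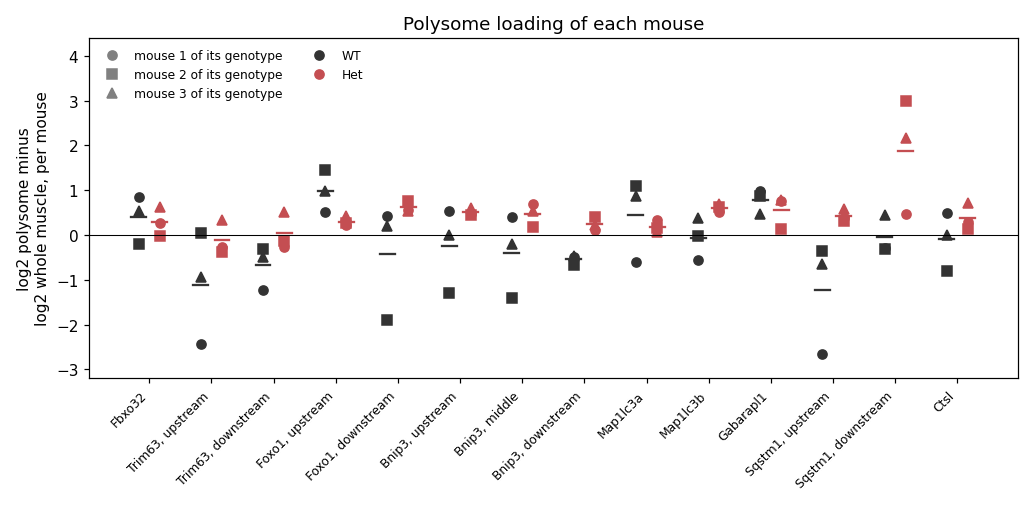
Log2 polysome minus log2 whole-muscle signal for each of 3 WT and 3 Het mice at the 14 tested probes; bars are genotype means. The upstream Sqstm1 probe is below 0 in every WT mouse (-2.66 to -0.35) and above 0 in every Het mouse (0.31 to 0.59).

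Polysomes were next set against whole muscle within each genotype. In WT, Foxo1 was the 1 gene of 9 with an adjusted p below 0.05, against 21.6% of all tested probes: its upstream probe was higher in polysomes by 0.98 ± 0.24 (limma, adjusted p = 0.0285), while its downstream probe gave -0.42 ± 0.43. Without WT mouse 2, on whose polysome array the downstream probe was not well above background, the upstream difference was 0.74 and the downstream one 0.31, and none of the 9 genes then had an adjusted p below 0.05, as was also so without WT mouse 3, Het mouse 1 or Het mouse 3. With the arrays not paired by mouse 2 of the 9 genes had an adjusted p below 0.05. By the study's rule Sqstm1 was the 1 gene of 9 called in WT, with a difference of -1.22 ± 0.42 (limma, adjusted p = 0.0789), against 20.4% of probes. Without WT mouse 1 it was -0.50 (unadjusted p = 0.0749), below the rule. Gabarapl1 was higher in WT polysomes by 0.77 ± 0.23 (limma, adjusted p = 0.0521) and Trim63 was at -0.68 ± 0.27 (limma, adjusted p = 0.111), and at -0.40 without WT mouse 1. The upstream Trim63 probe met the study's rule at -1.11 ± 0.44 (limma, adjusted p = 0.107), and was at -0.45 without WT mouse 1 and -1.69 without WT mouse 2. The downstream Sqstm1 probe gave -0.05 ± 0.45, and the middle and downstream Bnip3 probes gave -0.41 ± 0.34 and -0.54 ± 0.19 (0.09 and -0.48 without WT mouse 2).

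In Het, all 9 genes had at their brightest probe a mean polysome signal above that of whole muscle, from 0.04 (Trim63) to 0.61 (Map1lc3b), where 58.2% of all tested probes were above 0 and their median was 0.13. Without Het mouse 3 Trim63 was at -0.20. The study's rule called 0 of the 9 genes, against 13.4% of probes, and an adjusted p below 0.05 was reached by 0 of 9, against 8.01%. In limma 2 genes had an unadjusted p below 0.05, Map1lc3b at 0.61 ± 0.24 and Gabarapl1 at 0.56 ± 0.23. The other probes gave -0.11 ± 0.44 (upstream Trim63), 0.61 ± 0.43 (downstream Foxo1) and 0.47 ± 0.34 and 0.25 ± 0.19 (Bnip3). The downstream Sqstm1 probe did pass, at 1.88 ± 0.45 (limma, adjusted p = 0.0490), with the whole-muscle arrays below background described above. The WT and Het values here share their arrays with the loading comparison and are not separate evidence for it.

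Monosomes were next set against whole muscle and polysomes. More of all probes were called there than between genotypes in whole muscle, polysomes or loading. With both genotypes in the fit and arrays not paired by mouse, 4 of 9 genes had an adjusted p below 0.05 between monosomes and whole muscle. That was against 24.9% of probes, and 3 of 9 met the study's rule, against 25.3%. Sqstm1 was lower in monosomes by 1.99 ± 0.43 (limma, log2 difference -1.99, adjusted p = 0.00828), Trim63 at -1.18 ± 0.23 (adjusted p = 0.00520) and Ctsl at -1.23 ± 0.41 (adjusted p = 0.0464). Map1lc3a went the other way, higher in monosomes by 0.92 ± 0.30 (limma, adjusted p = 0.0395), and by 0.57 without WT mouse 2 (unadjusted p = 0.0767). The downstream Sqstm1 probe gave -0.43 ± 0.45 (limma, adjusted p = 0.473) and so did not pass where the upstream probe did. The upstream Trim63 probe gave -1.22 ± 0.47 (adjusted p = 0.0680), which was -0.66 without WT mouse 1, and the downstream Foxo1 probe gave -1.06 ± 0.72, which was 0.08 without WT polysome 2 and WT monosome 2. The middle and downstream Bnip3 probes gave -1.03 ± 0.45 and -1.47 ± 0.40 (limma, adjusted p = 0.102 and 0.0237), and -0.35 and -0.77 without WT polysome 2 and WT monosome 2.

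The values by array show how far each of these went. Sqstm1 read 6.28 and 8.43 in WT monosomes and 6.42 and 7.15 in Het monosomes, all below the 6 whole-muscle arrays except WT monosome 2. Trim63 read 8.57 and 8.85 in WT and 8.55 and 8.76 in Het monosomes, all below its lowest whole-muscle array, 9.61. Map1lc3a read 10.98 and 12.07 in WT and 11.09 and 11.05 in Het monosomes, all above its highest whole-muscle array, 10.97. Ctsl read 9.68 and 7.35 in WT and 9.07 and 8.62 in Het monosomes, and only WT monosome 1 came within the range of the whole-muscle arrays (9.60 to 10.17). Without WT polysome 2 and WT monosome 2 the Ctsl difference was -0.65 (limma, unadjusted p = 0.00797), that of Map1lc3a 0.65 (unadjusted p = 0.0403), that of Sqstm1 -2.52 (unadjusted p = 9.29e-06) and that of Trim63 -1.25 (unadjusted p = 1.03e-04).

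Between polysomes and monosomes, 4 of 9 genes had an adjusted p below 0.05, all higher in polysomes, against 26% of probes. They were Sqstm1 (1.59 ± 0.43, limma, adjusted p = 0.0185), Ctsl (1.37 ± 0.41, adjusted p = 0.0300), Trim63 (0.86 ± 0.23, adjusted p = 0.0185) and Map1lc3b (0.62 ± 0.18, adjusted p = 0.0248). The downstream Sqstm1 probe also passed, at 1.34 ± 0.45 (limma, adjusted p = 0.0431). The downstream Bnip3 probe passed at 1.32 ± 0.40 (limma, adjusted p = 0.0307), which was 0.63 without WT polysome 2 and WT monosome 2. The middle Bnip3 probe met the study's rule at 1.05 ± 0.45 (adjusted p = 0.0934), and was at 0.62 without those arrays. Upstream Trim63 gave 0.61 ± 0.47 and downstream Foxo1 1.16 ± 0.72, and downstream Foxo1 was at 0.45 without those arrays. By the study's rule 2 of 9 genes were called, Sqstm1 and Ctsl, against 24.4% of probes. Map1lc3a went the other way, at -0.61 ± 0.30 (limma, adjusted p = 0.132). Per mouse it gave -0.61 and -0.74 in WT mice 1 and 2 and -0.52 and -1.15 in Het mice 1 and 3. Bnip3 (0.60 ± 0.30), Fbxo32 (0.56 ± 0.34), Gabarapl1 (0.49 ± 0.21) and Foxo1 (0.36 ± 0.22) were higher in polysomes and did not pass the adjusted threshold. The medians were 0.60 over the 9 genes and 0.20 over all tested probes. Without Het mouse 1 none of the 9 genes had an adjusted p below 0.05 in either monosome comparison, and the share of all probes that did fell to 2.19% against whole muscle and 4.7% against polysomes. Without Het mouse 3 the counts were 1 and 0 (5.6% and 9% of all probes), without Het mouse 2 they were 2 and 2 (10.3% and 16.8%), and without WT mouse 3 they were 2 and 1 (9.97% and 15.4%).

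**Figure D5:**
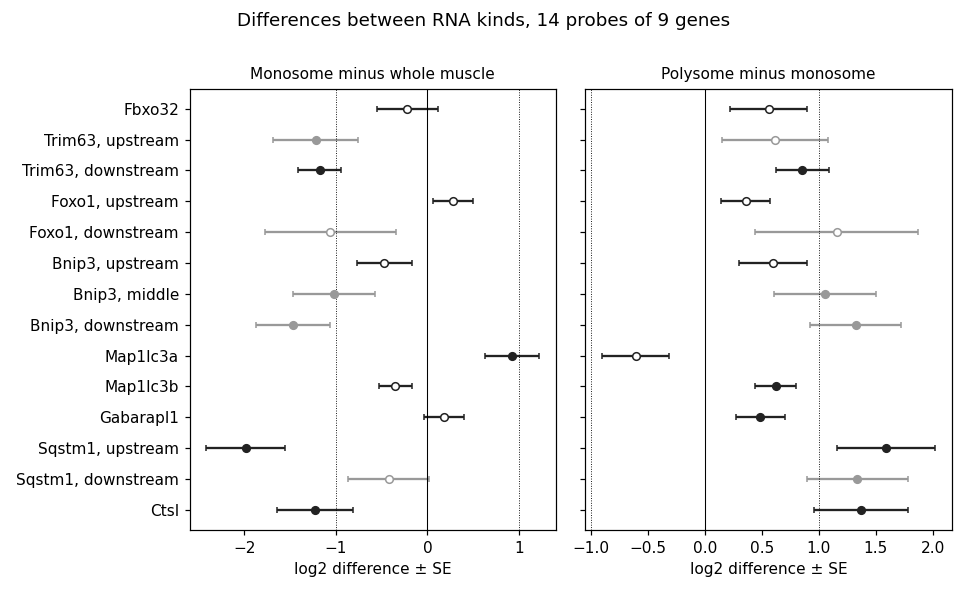
Log2 difference ± SE (limma) between monosomes and whole muscle and between polysomes and monosomes for the 14 tested probes, both genotypes together; black is the brightest probe of a gene, grey the others, and filled points have an unadjusted p below 0.05. Sqstm1, Trim63 and Ctsl lie at -1.99, -1.18 and -1.23 in the first panel, and Map1lc3a at 0.92.

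Between genotypes within monosomes, Map1lc3b was the 1 gene of 9 called by the study's rule, against 28.6% of probes. It read 9.25 and 9.20 in WT and 10.22 and 10.25 in Het, a difference of 1.02 ± 0.28 (limma, unadjusted p = 0.00294, adjusted p = 0.0870). With only 2 arrays a genotype the spread within each is poorly known, and no permutation test can pass. The difference lay close to the limit of the rule and fell just under it, with the call lost, at 0.99 without the arrays of WT polysome 2 and WT monosome 2, 0.95 after normexp background correction, 0.988 in the authors' table, 0.977 on slide 1 alone, 0.985 with array brightness as a term and 0.996 with the replicate number as a block. By adjusted p 0 of 9 genes were called, against 0.499% of probes, and at an unadjusted p below 0.05 limma had Map1lc3b alone. Leaving out WT mouse 1 or 2 left 1 WT monosome array, taken to vary as the other groups do. Without WT mouse 1 the count was 5 by the study's rule and 3 by adjusted p, where 55.8% and 53.2% of all probes were called, and without WT mouse 2 it was 0 by both, where 8.62% and 0.163% were. The middle and downstream Bnip3 probes (1.83 ± 0.70 and 2.25 ± 0.62) and the downstream Foxo1 probe (2.48 ± 1.11) also differed with an unadjusted p below 0.05, but their WT monosome 2 values (7.36, 1.58 and 1.63) were far below those of WT monosome 1 (10.05, 4.37 and 6.20). Without WT polysome 2 and WT monosome 2 these differences were 0.48, 0.85 and 0.19. Upstream Trim63 gave -1.04 ± 0.72 and downstream Sqstm1 -0.29 ± 0.69, and -0.12 and -0.0057 without them.

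Ordered by mean level over the 6 groups, the members did not share 1 pattern. Bnip3, Fbxo32, Map1lc3b and Ctsl were highest in Het polysomes, Foxo1 and Gabarapl1 in WT polysomes, Trim63 and Sqstm1 in WT whole muscle and Map1lc3a in WT monosomes. Most neighbouring groups overlapped. Non-overlapping steps were found for Bnip3 and Map1lc3b between Het polysomes (12.34 ± 0.08 and 10.59 ± 0.10, SD, n = 3) and the next group, for Map1lc3b also between Het whole muscle (9.99 ± 0.14) and WT monosomes (9.22 ± 0.03, SD, n = 2), for Trim63 between WT polysomes (9.29 ± 0.44) and WT monosomes (8.71 ± 0.19), and for Ctsl between Het whole muscle (9.79 ± 0.19) and Het monosomes (8.84 ± 0.32). In Foxo1 and Fbxo32 WT whole muscle (7.21 ± 0.18 and 7.82 ± 0.18) was set apart from the group above it.

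Across the 16 arrays the gene most like Sqstm1 among probes well above background on all arrays was Cacng1 (Pearson r = 0.979), which encodes a subunit of the muscle calcium channel, followed by Tpi1, a glycolytic enzyme (0.970). Ctsl was most like Copb2 (0.977) and Ran (0.962), Trim63 like Adsl (0.931) and Mars (0.927), Bnip3 like Sparcl1 (0.925) and Atp1b2 (0.914), and Gabarapl1 like Flt1 (0.929) and Cxcl14 (0.917). Foxo1 was most like Lysmd1 (0.902) and Mrps16 (0.873), Map1lc3a like Ube2m (0.895) and Zfp628 (0.884), Map1lc3b like Mrpl27 (0.896) and Sh2b1 (0.893), and Fbxo32 like Rbfox1 (0.795) and Bpifc (0.785). Among the members themselves r was highest for Trim63 with Sqstm1 (0.898) and lowest for Map1lc3a with Ctsl (-0.707). These arrays share mice, slides and the difference between RNA kinds, so the values are descriptions.

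The rest of the programme was followed in lists of 113 other genes, of which 109 were tested: ubiquitin ligases and their partners, the FOXO family and its regulators, FOXO and glucocorticoid targets, the autophagy machinery, genes of selective autophagy, and lysosomal genes. In whole muscle 0 of the 109 met the study's rule in either direction, against 5.46% of all tested probes (0 to 6 without 1 mouse, with 6 lower without WT mouse 2 and 3 lower without Het mouse 3), 6 had an unadjusted p below 0.05 in limma and 5 by the methods' t-test. In polysomes 6 were called higher and 1 lower in Het, which is 6.42% of the 109 against 5.51% of all probes, and in loading 2 were called higher and 0 lower, which is 1.83% against 13.8%, with an adjusted p below 0.05 in none. When WT polysome 2 was left out, 3 were called higher and 6 lower in polysomes and 10 higher and 0 lower in loading (8.26% and 9.17%, against 3.94% and 14% of all probes). Leaving out 1 mouse at a time, the total called ran from 4 (without Het mouse 1 or 2) to 11 (without WT mouse 1) in polysomes and from 2 to 10 (without WT mouse 2) in loading. The list of selective autophagy and mitophagy holds cargo receptors, as Sqstm1 and Bnip3 are, and also genes that are not receptors, such as Pink1, a kinase, and Nfe2l2 and Keap1, a transcription factor and its repressor. It had 3 of 10 called higher in polysomes and 1 of 10 in loading, with median differences of 0.24 and 0.80 against 0.05 and 0.17 over all tested probes. In polysomes the medians of the ligase, autophagy machinery, FOXO regulator and FOXO target lists were 0.37, 0.29, 0.27 and 0.24. In loading they were 0.46, 0.37, 0.24 and 0.03. The selective autophagy genes called in polysomes were the receptors Tax1bp1 (1.09 ± 0.25) and Fundc1 (1.03 ± 0.33) and the transcription factor gene Nfe2l2 (1.07 ± 0.49). Without WT polysome 2 they gave 0.92, 0.62 and 0.36, so that 0 of 10 were called. In loading 3 of 10 were called higher without that array. Lysosomal genes had 0 of 21 called in whole muscle, polysomes and loading, with medians of -0.32, -0.23 and 0.05, and without WT polysome 2 they had 4 of 21 called lower in polysomes and 1 higher in loading.

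With all arrays in the fit, the list genes with the largest called differences in polysomes were Mstn, Mt1 and Sgk1. Mstn (myostatin, the secreted inhibitor of muscle growth) read 5.65, 1.70 and 6.60 in WT and 7.56, 7.46 and 6.99 in Het, a difference of 2.68 ± 0.94 (limma, adjusted p = 0.268), and was not well above background on WT polysome 2. Without that array the difference was 1.21 (unadjusted p = 0.00586). Mt1 (metallothionein 1) read 13.77, 9.93 and 12.09 in WT and 9.72, 9.88 and 9.09 in Het, a difference of -2.37 ± 0.96 (limma, adjusted p = 0.296), which was -1.45 without WT mouse 1 and -3.37 without WT mouse 2. Sgk1, a kinase that phosphorylates FOXO proteins, read 8.23, 8.17 and 9.31 in WT and 9.68, 9.69 and 9.92 in Het, a difference of 1.19 ± 0.34 (limma, adjusted p = 0.231), which was 0.99 without WT polysome 2, just under the study's rule. In all of these every Het array lay on one side of every WT array.

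In loading the called list genes were Pik3c3, the lipid kinase of autophagosome formation, and Tax1bp1, an autophagy receptor like Sqstm1. Tax1bp1 gave -1.78, -1.72 and -0.66 in WT mice and -0.51, 0.15 and 0.11 in Het mice, a difference of 1.30 ± 0.41 (limma, adjusted p = 0.186). Pik3c3 gave -1.89, -1.05 and -1.12 in WT and -0.10, 0.00 and -0.04 in Het, a difference of 1.31 ± 0.33 (limma, adjusted p = 0.124), with several arrays not well above background. Neither overlapped between genotypes, and the WT mice were the lower ones. Both were named because they met the rule, and 25.4% of all tested probes did not overlap in loading. Loading was higher in Het at 60% of all tested probes.

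The monosome comparisons were taken over the lists together, and against whole muscle also by list. Against whole muscle 21 of the 109 genes were called lower and 3 higher, 22% of the lists against 25.3% of all probes, with an adjusted p below 0.05 in 24 lower and 5 higher, 26.6% against 24.9%. The selective autophagy list had 5 of 10 genes called in that comparison, 4 lower and 1 higher, and 7 of 10 by adjusted p. Its median difference was -0.85, and -0.63 without WT polysome 2 and WT monosome 2. In the other lists 7 of 20 ligases, 7 of 28 autophagy machinery genes and 0 of 21 lysosomal genes were called. FOXO regulators had 3 of 17 and FOXO targets 2 of 13. Against monosomes, polysomes had 22 called higher and 0 lower, 20.2% against 24.4%. Between genotypes within monosomes 22 were called higher in Het and 4 lower, 23.9% against 28.6%, and 0 of the 109 had an adjusted p below 0.05. Without WT polysome 2 and WT monosome 2 the counts were 14 lower and 1 higher against whole muscle, 17 higher and 3 lower in polysomes against monosomes, and 7 higher and 9 lower between genotypes (13.8%, 18.3% and 14.7%, against 14%, 20.9% and 8.29% of all probes). Between genotypes within monosomes the total was 57 without WT mouse 1 and 9 without either Het mouse that had a monosome array, where 55.8%, 9.18% and 18.3% of all probes were called without WT mouse 1, Het mouse 1 and Het mouse 3.

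As sequence context, promoters of 8 of the 10 members were found in the RefSeq table (GRCm38.p6) and the 250 bases before the start were searched on both strands. The FOXO core letters TGTTTAC were found in 1 of the 8, Trim63, and in 3.17% of all 32851 promoters in the table. The E-box letters CACGTG were found in 2 of the 8, Bnip3 and Ctsl, and in 6.02% of all promoters. The Trim63 promoter is shown because it is the one with the FOXO core, in a gene whose ligase is known as a FOXO target. It lies at chr4:134314870-134315119 on the plus strand, and the capitals mark the core, which begins 194 bases before the start.
Trim63 promoter: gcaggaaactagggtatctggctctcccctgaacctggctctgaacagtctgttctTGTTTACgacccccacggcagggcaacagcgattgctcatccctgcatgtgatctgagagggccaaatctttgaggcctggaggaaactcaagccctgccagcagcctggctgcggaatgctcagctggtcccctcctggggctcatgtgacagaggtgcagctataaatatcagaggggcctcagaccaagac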

How the data were processed

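RNA from gastrocnemius was labelled with Cy3 and hybridised to single-colour Agilent arrays, and the authors deposited scanner intensities (Agilent Feature Extraction 11.0.1.1; probe positions in mm9, per the file headers). A table of log2 values, deposited by the authors, held their normalized signals for the same 16 arrays; its ranks matched the raw median signal, and it served as an alternative.

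The processed intensity was taken as log2, spots marked as outliers were removed, spots of a probe were averaged and all 16 arrays were quantile normalized together (limma 3.58.1, R 4.3.3). Tests were kept to probes that the scanner marked as well above background throughout at least 1 group (19812 probes in 12 arrays, 20250 in 16). Differences were fitted with lmFit and eBayes and adjusted by Benjamini-Hochberg over all tested probes. Het and WT were fitted on the 4 whole-muscle and polysome groups, loading on the 6 per-mouse differences, and monosome comparisons on all arrays without pairing by mouse. The polysome and whole-muscle arrays with the same genotype and number come from 1 mouse, per the series description; their deviations from group means correlated at 0.05 to 0.48. Exact permutation tests were two-sided. The number of arrays limits the precision.

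All 10 members are named with every probe; for the genotype comparisons the text names the 3 list genes with the largest difference that met the study's rule, and for likeness the 2 most correlated named genes per member, leaving out the other members and, by a choice made after the rule was written, names of clones, predicted loci and transcripts. The members and lists were chosen with earlier results of these data known. Alternatives covered scaling, background correction, filters, slides, array brightness, pairing, the methods' t-test, probe averaging and leaving out each mouse. The fitting code was tested on simulated data. The labels do not say whether arrays of a group differ in more than the mouse.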

Additional observations from a re-analysis of the deposited data

Results flagged for a closer look

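Sqstm1 was marked because its polysome minus whole-muscle difference ran in opposite directions in the genotypes at the upstream probe: below 0 in all 3 WT mice and above 0 in all 3 Het mice, with Het higher than WT by 1.65 on the log2 scale, and by 0.93 without WT mouse 1. At the downstream probe WT mouse 3 was above 0 (0.45). The difference itself was tested (limma, adjusted p = 0.236) and did not pass the correction.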

How the results depend on the processing

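Of the 19 differences with an unadjusted p below 0.05 at the brightest probes of the members, all kept their direction under all 368 combinations with an alternative, and 87 of these combinations gave an unadjusted p of 0.05 or more. At the other probes of the members 17 differences had an unadjusted p below 0.05, of which 2 changed sign, each on slide 2 alone, and 106 of 304 combinations gave an unadjusted p of 0.05 or more. Of the 9 called differences of list genes in polysomes and loading 0 changed sign, and 42 of 177 combinations gave an unadjusted p of 0.05 or more. The cause of these moves was not tested. No mouse had its polysome and whole-muscle arrays on the same slide, so for loading and for polysomes against whole muscle the values on 1 slide alone compare arrays of different mice, some arms with 1 array, and are not per-mouse differences. In whole muscle 1 gene met the study's rule on slide 2 alone and 1 with the mean of all probes of a gene. In loading 0 did with slide as a term, on slide 1 alone, with array brightness as a term and by the methods' t-test. In polysomes 1 did without WT polysome 2 and WT monosome 2, an alternative chosen after seeing the data. For WT polysomes against whole muscle 2 did with 75th percentile scaling and 0 on slide 1 alone, by the methods' t-test and with the mean of all probes, and for Het 1 did with the mean of all probes. Within monosomes the count was 0 with normexp background correction, with the authors' table, on slide 1 alone, with array brightness as a term and without WT polysome 2 and WT monosome 2, 2 on slide 2 alone and 3 with the mean of all probes. For monosomes against whole muscle it was 1 on slide 1 alone, and for polysomes against monosomes 1 on slide 1 alone and 1 with array brightness as a term.

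Counts of genes with an adjusted p below 0.05 moved as follows. For WT polysomes against whole muscle it was 2 with 75th percentile scaling, 4 with normexp, 3 with the authors' table, 3 with probes well above background on every array, and 0 with no filter, with slide as a term, on slide 1 alone, on slide 2 alone, with array brightness as a term, by the methods' t-test and without WT polysome 2 and WT monosome 2. For Het it was 1 with normexp, and within monosomes 1 with normexp and 1 with the authors' table. For monosomes against whole muscle it was 2 with no filter, 0 on slide 1 alone, 2 with array brightness as a term and 2 by the methods' t-test. For polysomes against monosomes it was 0 on slide 1 alone, 2 on slide 2 alone, 0 with array brightness as a term and 0 by the methods' t-test.

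Leaving out 1 mouse at a time, genes called by the study's rule ranged from 0 to 1 in whole muscle, 0 to 1 in polysomes, 0 to 1 in loading, 0 to 5 within monosomes, 2 to 4 for monosomes against whole muscle and 1 to 2 for polysomes against monosomes. The count moved to 1 in whole muscle without WT mouse 3 or Het mouse 3 and in polysomes without any 1 WT mouse, and to 0 in loading without Het mouse 1 or Het mouse 3. Genes with an adjusted p below 0.05 ranged from 0 to 1 for WT polysomes against whole muscle, 0 to 3 within monosomes, 0 to 4 for monosomes against whole muscle and 0 to 6 for polysomes against monosomes.

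The 2 differences past the unadjusted threshold whose sign turned were those of the downstream Sqstm1 probe on slide 2 alone, in whole muscle (0.18) and in loading (-0.36). Signs also turned in differences that did not pass it. In whole muscle they did so on slide 1 alone for Trim63 (0.0669), Bnip3 (-0.34) and Gabarapl1 (-0.13), on slide 2 alone for Ctsl (0.0448), with slide as a term for Gabarapl1 (-0.0425) and with array brightness as a term for Gabarapl1 (-0.0592) and Ctsl (0.35). In polysomes Ctsl turned on slide 2 alone (-0.0646), with array brightness as a term (-0.027) and without WT polysome 2 and WT monosome 2 (-0.25), and Foxo1 with the mean of its probes (0.37). In loading, as a contrast between arrays of different mice where it is within 1 slide, Fbxo32 (0.0432) and Gabarapl1 (0.0278) turned on slide 1 alone, Bnip3 (-0.21) and Ctsl (-0.11) on slide 2 alone, Fbxo32 (0.0131) and Gabarapl1 (0.53) with array brightness as a term, Foxo1 with the mean of its probes (0.17) and Map1lc3a without WT polysome 2 and WT monosome 2 (0.0513). Leaving out 1 mouse, differences that changed sign ranged from -0.16 to 0.30 for Bnip3 and -0.10 to 0.11 for Gabarapl1 in whole muscle, from -0.25 to 0.61 for Ctsl and -0.0001 to 0.69 for Fbxo32 in polysomes, and from -0.40 to 0.13 for Fbxo32 and -0.79 to 0.0513 for Map1lc3a in loading. At the other probes, signs turned on slide 1 alone for downstream Foxo1 (-0.39), middle Bnip3 (-0.40) and downstream Bnip3 (-0.32) in whole muscle, upstream Trim63 in polysomes (-0.66) and in loading (-0.33). They turned on slide 2 alone for downstream Sqstm1 in polysomes (-0.18) and for downstream Foxo1 (-0.38) and middle Bnip3 (-0.0221) in loading. Downstream Bnip3 turned in whole muscle with normexp (-0.028), the authors' table (-0.0422) and array brightness (-0.0255), upstream Trim63 in polysomes with normexp (-0.0121), the authors' table (-0.002) and slide as a term (-0.0093), and downstream Sqstm1 in polysomes with array brightness (-0.204). Without 1 mouse they ranged in whole muscle from -0.14 to 0.13 for downstream Foxo1, -0.22 to 0.25 for middle Bnip3 and -0.13 to 0.13 for downstream Bnip3, and in polysomes from -0.42 to 0.63 for upstream Trim63.

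With the replicate number as a block, 0 genes met the study's rule within monosomes. For monosomes against whole muscle or polysomes the block was the mouse. The block changed no other count by more than 1.5 times. WT and Het arrays of 1 number share no animal or stated batch, and their deviations from group means correlated at -0.33 to 0.45. Without the pairing of polysome and whole-muscle arrays of a mouse (no replicate block), 2 genes had an adjusted p below 0.05 for WT polysomes against whole muscle, and no other count moved by more than 1.5 times. Dim probes limit Foxo3, which gave no difference, and the downstream probes of Sqstm1, Foxo1 and Bnip3, each not well above background on 1 or more arrays.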
